A study of Mus musculus with 4 samples.

Results

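Fibronectin (Fn1), vitronectin (Vtn) and the matricellular genes Tnc, Postn, Thbs1, Sparc, Ccn1, Ccn2 and Spp1 were followed in the lens epithelium of UVB-irradiated and control mouse eyes. The genes were taken as a family by name, and each was read from the probe set annotated to it alone. Of the 9 genes, 8 had a probe set of their own, among 19946 genes with one. Each of the 8 had exactly 1, so no choice between probe sets arose, and Spp1, which encodes osteopontin, was not analysed here. Right eyes of male C57BL/6 mice, 8 weeks old and of no stated genetic modification, received UVB at 30 mJ/cm2 under anesthesia, and lens epithelia were isolated 1 day later. The controls were epithelia from the left eyes of the same mice, shielded by aluminum foil during the exposure. There were 2 independent experiments with 1 array per condition in each, so that each group had 2 arrays. The methods give 3 mice for each animal experiment, without saying how many contributed to an array, and p-values measure only the spread between these arrays, which may be technical.

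Fibronectin and vitronectin are adhesive glycoproteins that cells grip through integrins, fibronectin as fibrils assembled at the cell surface and vitronectin as a plasma and matrix protein. Matricellular proteins are secreted into the matrix as well, but they tune adhesion and growth factor signaling more than they bear load. In the lens, the epithelium rests on the capsule, a basement membrane, and fibronectin, tenascin-C and the CCN proteins are known as markers of the fibrotic response in which lens epithelial cells (LECs) become mesenchymal.

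Values are log2 signals, on which a difference of 1 is a 2-fold change. In every probe set, the sum of both arrays of experiment 1 equaled that of experiment 2 within 0.01, so that the deposited experiments had the same mean in every probe set. The levels therefore carry no information on how the experiments differed, and what remains is the difference of UVB minus control within each experiment. These were tested by limma with the experiment as a block, since both eyes of a mouse form a pair. Between 2 pairs, an exact permutation test cannot go below p = 0.5, so the p-values given are those of limma, which borrows its error from all probe sets. A sample called lens epithelium should hold lens genes, and it did. Foxe3, a transcription factor of LECs, had log2 signals of 11.14 and 11.13 in UVB-irradiated epithelia and 11.27 and 11.28 in controls. Lens fiber markers also had signal, with medians of 13.055 and 13.015 after UVB and 13.085 and 13.125 in controls, so fiber transcripts were present. Markers of photoreceptors and of the retinal pigment epithelium were measured too. All 11 and all 7 of them were higher after UVB in both experiments, against 24.0% of all probe sets. The array medians lay between 7.19 and 7.22.

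The promoter windows of Vtn, the member with the largest difference, and of Ccn1, which differed by little, are shown because they were the only members' windows that held a motif searched for. Each line gives the 250 bases upstream of the annotated start in RefSeq on GRCm38.p6, 5′ to 3′ in the direction of the gene. Vtn lies on the plus strand at chr11:78498870-78499119 and Ccn1 on the minus strand at chr3:145649986-145650235. Capitals mark the letters GGAATG on either strand, the core that TEAD factors, the partners of YAP, are known to bind.
Vtn: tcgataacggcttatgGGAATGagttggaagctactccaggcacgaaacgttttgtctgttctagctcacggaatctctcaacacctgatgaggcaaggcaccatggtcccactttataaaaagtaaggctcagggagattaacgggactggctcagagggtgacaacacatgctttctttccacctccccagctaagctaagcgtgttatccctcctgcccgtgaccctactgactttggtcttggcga
Ccn1: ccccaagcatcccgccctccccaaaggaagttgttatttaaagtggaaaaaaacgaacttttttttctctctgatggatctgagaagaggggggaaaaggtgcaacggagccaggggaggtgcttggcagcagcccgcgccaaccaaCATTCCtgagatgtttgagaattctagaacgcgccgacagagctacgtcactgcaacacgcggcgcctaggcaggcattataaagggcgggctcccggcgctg

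The letters GGAATG stood once in each of the windows, at -234 to -229 from the start of Vtn and at -103 to -98 from that of Ccn1, there on the other strand. Of 32851 promoter windows of the same length, 12.6% held them. The other motifs searched on both strands were TAATCC, the core bound by Otx2 and Crx, with a share of 6.25% of all windows, TGANTCA of AP-1 with 6.75%, GCGTGGGCG of Egr1 with 0.536%, and the CArG box of SRF with 1.47%. None of these 4 was found in the windows of Vtn or Ccn1. None of the 5 motifs was found in the windows of Tnc, Postn and Sparc, and 3 further members had no window in the reference. A match is a description of letters, and no match says nothing of what a factor does elsewhere in the gene.

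Among the adhesive glycoproteins, Vtn was higher in UVB-irradiated epithelia and Fn1 was nearly level. The log2 signal of Vtn was 9.64 and 9.82 in UVB-irradiated epithelia of experiments 1 and 2, against 9.05 and 8.86 in controls. Both irradiated arrays lay above both controls, as in 24.0% of all probe sets. The mean was 9.73 ± 0.13 after UVB and 8.96 ± 0.13 in controls (SD, n = 2 arrays each). Because the experiments share a mean, both SDs reflect the same gap between the experiments' differences. They are not independent spreads of the groups. The difference was 0.59 in experiment 1 and 0.96 in experiment 2, and the mean of 0.78 (standard error 0.13) corresponds to 1.71-fold, with a 95% interval of 1.20-fold to 2.44-fold. This was the 53rd largest increase among the 19946 genes. The p from limma was 0.0214 before and 0.357 after adjustment. No probe set had a lower adjusted p in this fit, but many shared this value. Among them was Ttr, a marker of the pigment epithelium, with a far lower unadjusted p of 3.75e-04 from limma. Without the block, which counts a residual degree of freedom that the values no longer hold, the adjusted p of limma for Vtn was 0.0436.

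Fn1 had log2 signals of 7.42 and 7.41 in UVB-irradiated epithelia, against 7.38 and 7.39 in controls. The irradiated arrays were above the controls in both experiments, but by 0.04 and 0.02 only. The mean difference was 0.03 (standard error 0.028), which is 1.02-fold, and limma returned an adjusted p of 0.620. The 95% interval reached from 0.945-fold to 1.10-fold. It rests on 1 residual degree of freedom and an error borrowed from all probe sets. A larger change in Fn1 transcript 1 day after UVB is therefore not excluded.

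Thbs1, which encodes thrombospondin-1, an activator of latent TGFβ and an inhibitor of angiogenesis, was the other member whose 95% interval lay above 0. Its log2 signal was 8.46 and 8.32 in UVB-irradiated epithelia, against 7.78 and 7.92 in controls. Both irradiated arrays were again above both controls, as in 24.0% of all probe sets. In experiment 1 the difference was 0.68 and in experiment 2 it was 0.40, with a mean of 0.54 (standard error 0.099). This is 1.45-fold, with a 95% interval of 1.11-fold to 1.91-fold. Its p from limma was 0.0262 before and 0.357 after adjustment.

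**Figure D1:**
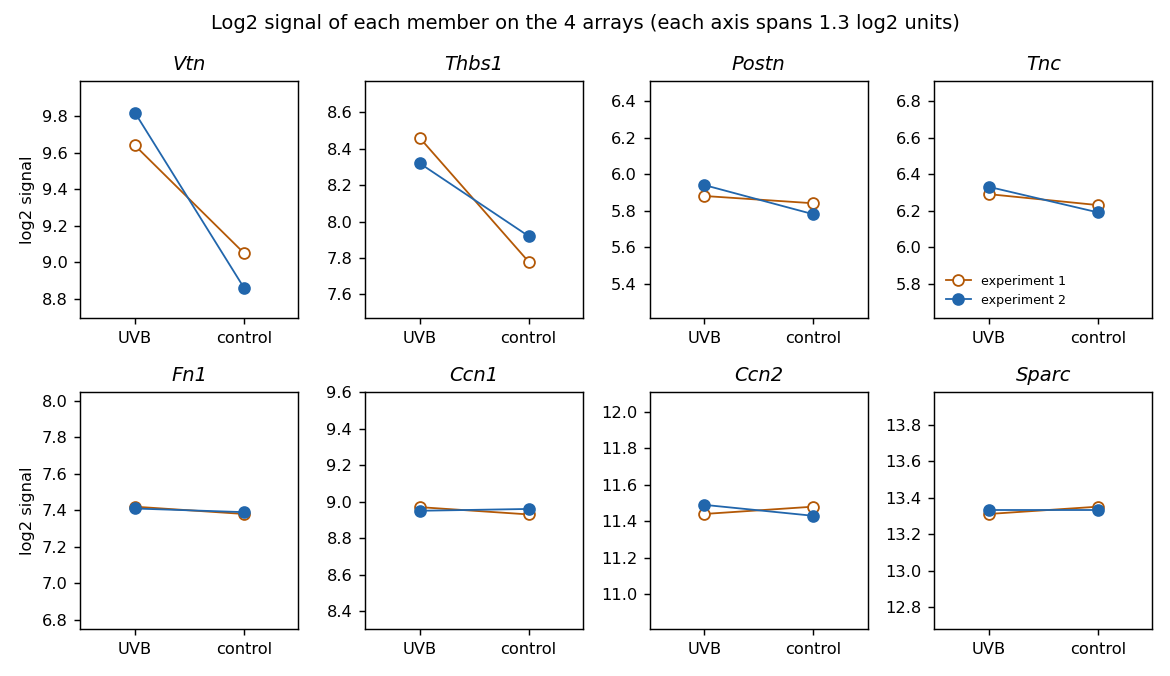
Log2 signal (vertical) of the 8 members in UVB-irradiated (left) and control (right) epithelia, with a line joining the arrays of 1 experiment, open for experiment 1 and filled for experiment 2. Every panel spans the same range of log2 units, and only Vtn and Thbs1 show differences of 0.40 or more in both experiments.

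Tnc and Postn, matricellular proteins of wound and scar matrix, were slightly higher after UVB in both experiments. Tnc, the tenascin-C gene, had log2 signals of 6.29 and 6.33 in UVB-irradiated epithelia and 6.23 and 6.19 in controls. Postn, the gene of periostin, a protein that aids collagen cross-linking, had log2 signals of 5.88 and 5.94 after UVB, against 5.84 and 5.78 in controls. In both genes the irradiated arrays lay above both controls, as in 24.0% of all probe sets. The mean difference was 0.10 in each, with a standard error of 0.038 for Tnc and 0.049 for Postn, and the adjusted p from limma was 0.389 and 0.441. The 95% interval was 0.964-fold to 1.19-fold for Tnc and 0.936-fold to 1.23-fold for Postn. Their signals lay below the array medians on all 4 arrays, and those of Postn were near the 25th percentile of 5.91 to 5.94. Tnc overlaps the noncoding gene 8030451A03Rik, whose own probe set had differences of -0.08 and -0.32, opposite in sign to those of Tnc. Signals of that probe set, 4.69 to 5.01, were below the 25th percentile of each array, so its sign says little.

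Sparc, Ccn1 and Ccn2 had signals above the array medians and mean differences within 0.02 of 0. Sparc encodes a collagen-binding protein of basement membranes and of the lens capsule. Its log2 signal was 13.31 and 13.33 in UVB-irradiated epithelia, against 13.35 and 13.33 in controls. The highest value of any probe set was 13.97, and whether the signal of Sparc was compressed near that end was not tested. The mean difference of Sparc was -0.02 (standard error 0.030), with a 95% interval of 0.907-fold to 1.07-fold.

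Ccn1, formerly Cyr61, and Ccn2, formerly Ctgf, are integrin ligands and known immediate targets of YAP and of TGFβ signaling. Ccn1 had log2 signals of 8.97 and 8.95 in UVB-irradiated epithelia and 8.93 and 8.96 in controls. For Ccn2 they were 11.44 and 11.49 after UVB, against 11.48 and 11.43 in controls. The groups overlapped in both genes, and the experiments had opposite signs, 0.04 and -0.01 for Ccn1 and -0.04 and 0.06 for Ccn2. The mean differences were 0.015 (standard error 0.032) and 0.01 (standard error 0.044), and both were below 0 once each array was centred on its median, at -0.005 and -0.01. The 95% interval was 0.925-fold to 1.10-fold for Ccn1 and 0.893-fold to 1.14-fold for Ccn2.

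**Figure D2:**
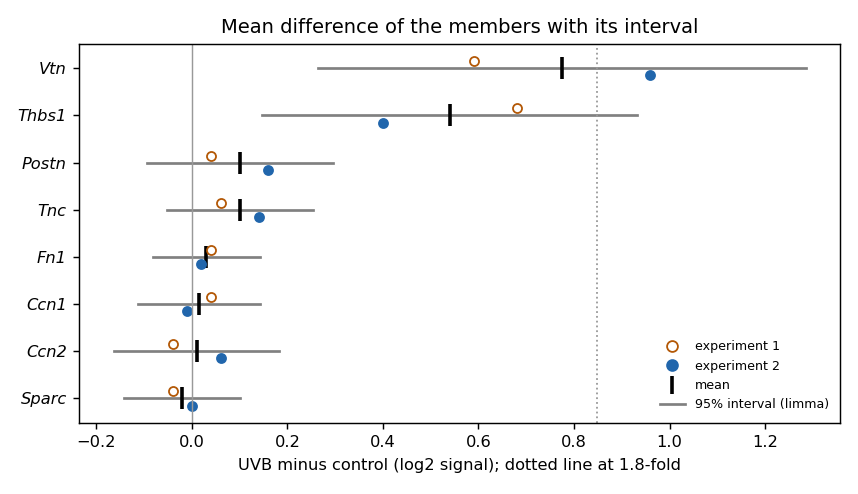
UVB minus control (horizontal, log2 signal) for each member in experiment 1 (open) and experiment 2 (filled), with the mean as a tick and its 95% interval from limma as a bar. The intervals of Vtn (0.26 to 1.29) and Thbs1 (0.15 to 0.93) lie above 0 and those of the other 6 members span it.

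Counted over the family, 0 of the 8 members passed the study's thresholds of more than 1.8-fold and an unadjusted p under 0.01. Of the 28944 probe sets, 0.0622% passed them upward and 0% downward. At an adjusted p of 0.05 from limma, 0 members and 0% of the probe sets were called in the fit with the block, where 3878 probe sets had an unadjusted p under 0.05. In the fit without the block, 1 member, Vtn, was called as higher at that adjusted p, as were 6.62% of the probe sets. At an unadjusted p of 0.05, 2 members (Vtn and Thbs1) were higher, against 5.69% of the probe sets, and 0 were lower, against 7.71%. The irradiated arrays were both above both controls in 5 members (Vtn, Thbs1, Tnc, Postn and Fn1), against 24.0% of the probe sets, and both below in 0, against 37.4%. Because the experiments share a mean, this is the same as having the same sign in both experiments. The median difference of the members was 0.065 (0.04 in experiment 1 and 0.10 in experiment 2), beside -0.025 over the 19946 genes (-0.02 and -0.03). The other 6 members had mean differences between -0.02 and 0.10.

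Vtn and Thbs1 had their larger difference in opposite experiments, which was not tested as there is 1 pair of arrays in each. Vtn had the larger difference in experiment 2 (0.96 against 0.59), as did 10 of the 11 photoreceptor markers, whose medians were 0.57 in experiment 1 and 0.97 in experiment 2. Thbs1 had the larger one in experiment 1 (0.68 against 0.40), as did 6 of the 7 markers of the pigment epithelium, with medians of 1.57 in experiment 1 and 0.97 in experiment 2. Other lists shared these orders. Of the 19946 genes, 9830 had the higher difference in experiment 1 and 9229 in experiment 2, so either order is common. The difference was higher in experiment 2 for 5 of 6 markers of Müller glia and 5 of 6 of the ciliary body and iris. The same held for 6 of 8 of leukocytes, 6 of 8 of endothelium and 4 of 6 of the lens epithelium. It was higher in experiment 1 for 4 of 5 of the cornea and conjunctiva and 4 of 6 of the lens fiber. Vitronectin transcripts are known from photoreceptors of the human retina, and thrombospondin-1 is known to be secreted by the pigment epithelium. On the log2 scale, the summed signal of the photoreceptor markers was 13.57 and 13.85 in UVB-irradiated epithelia, against 12.98 and 12.70 in controls. That of the pigment epithelium markers was 12.33 and 12.21 after UVB, against 10.80 and 10.93 in controls. The lowest signal in either list was that of Best1, a chloride channel of the pigment epithelium, with 6.29 and 6.21 after UVB and 6.04 and 6.12 in controls, and 3 markers of the pigment epithelium (Rpe65, Ttr and Rgr) and 1 of photoreceptors (Pde6b) passed the study's thresholds. The part of these tissues in the differences of Vtn and Thbs1 was not tested. A larger share of cells of a type and more RNA per cell cannot be told apart in such arrays.

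**Figure D3:**
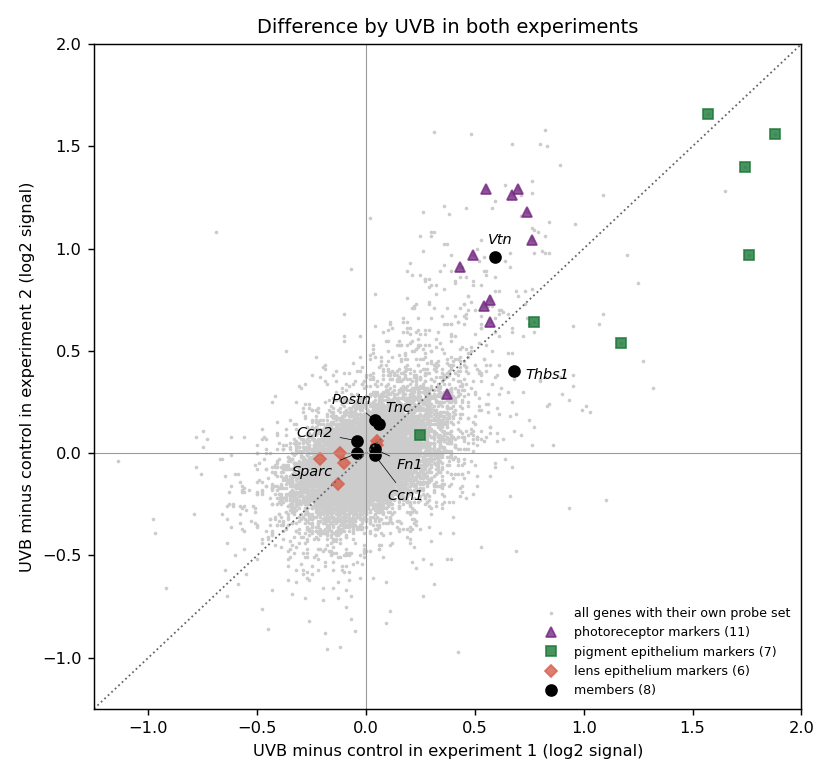
UVB minus control in experiment 1 (horizontal) and experiment 2 (vertical), in log2 signal, for the 19946 genes (grey), the members (black) and 3 marker lists, with equal differences on the dotted line. Vtn (0.59, 0.96) lies above the line, as do 10 of the 11 photoreceptor markers and 9229 of all genes. Thbs1 (0.68, 0.40) lies below it, as do 9830 of all genes, and the other members are near 0.

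Leukocyte and stromal markers had smaller median differences. The median of 8 leukocyte markers was 0.17, and 6 of them were higher in both experiments, against 24.0% of the probe sets. Lyz2, a lysozyme of myeloid cells, had the largest mean difference, 0.68, at an unadjusted p of 0.0669 from limma. At an unadjusted p of 0.05 from limma, 3 were higher and 1 was lower, beside 5.69% and 7.71% of all probe sets. The higher ones were Cd68 with 0.59, Csf1r with 0.35 and Adgre1 with 0.235. Csf1r and Adgre1 were named after their values were seen. Itgam, an integrin chain of myeloid cells named after its values were seen, was lower in both experiments, with -0.21 and -0.18, and Aif1, a macrophage marker likewise named afterwards, had 0.16 and -0.10. The summed leukocyte signal was 9.84 and 9.95 after UVB, against 9.56 and 9.46 in controls. For 8 markers of fibroblasts and pericytes the median was 0.058, and 3 were higher in both experiments, against 24.0% of the probe sets. The summed signal of all 8 was 11.66 and 11.71 after UVB and 11.71 and 11.68 in controls. Pdgfrb, named after its values were seen, weighs most in this sum, with signals of 11.12 to 11.23. The median of 8 endothelial markers was -0.085, with 5 lower in both experiments, against 37.4% of the probe sets. The largest differences of the same sign in both experiments were those of Kdr (0.38 and 0.39) and Pecam1 (-0.32 and -0.16). The median of 6 lens epithelium markers was -0.068 and that of 6 lens fiber markers -0.075. For 6 markers of Müller glia it was 0.25, for 6 of the ciliary body and iris 0.25, and for 5 of the cornea and conjunctiva 0.33, the last with 0.86 in experiment 1 and -0.09 in experiment 2. Whether any of these cells contributed to the members' signals was not tested.

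The 3 genes whose log2 signals over the 4 arrays lay closest to those of Vtn, by Euclidean distance among the 19946 genes, were Pde6b, Slc17a7 and Abca4. Pde6b, a subunit of the rod phosphodiesterase, was at a distance of 0.14, with 9.70 and 9.84 in UVB-irradiated epithelia and 8.94 and 8.80 in controls. Slc17a7, a vesicular glutamate transporter, was at 0.16, with 9.60 and 9.72 after UVB and 8.94 and 8.81 in controls. Abca4, a retinoid transporter of photoreceptor outer segments, was at 0.17, with 9.70 and 9.86 after UVB and 8.93 and 8.77 in controls. The measure rests on 4 arrays and includes the level of the probe set as well as its difference.

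Genes related to the members by structure, 23 in all and each measured, had a median difference of -0.015. At an unadjusted p of 0.05, 3 were higher and 2 lower, beside 5.69% and 7.71% of all probe sets, and 0 were called at an adjusted p of 0.05. The lower count is near the share over all probe sets and is no result about the relatives. Sparcl1, a relative of Sparc found in neural and vascular tissue, had the largest mean difference, 0.49 (1.40-fold), from 0.55 and 0.43 in the experiments. Its log2 signals were 8.38 and 8.32 after UVB, against 7.83 and 7.89 in controls. Tgfbi, the closest relative of Postn and a TGFβ-induced protein abundant in cornea, had a difference of 0.38, with 0.27 in experiment 1 and 0.49 in experiment 2. The third was Smoc1 with 0.27, a basement membrane relative of Sparc. The lower ones were Spock3 with -0.15 and Mepe with -0.13. Smoc1, Spock3 and Mepe were named after their values were seen. All 23 mean differences lay between -0.15 and 0.49.

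Among 19 receptors of the members, 3 were higher at an unadjusted p of 0.05 and 0 lower, beside 5.69% and 7.71% of all probe sets, and the median was 0.04. Itgb8, an integrin chain that pairs with αv, binds vitronectin and activates TGFβ, had the largest difference, 0.42 (1.34-fold). Its log2 signals were 9.54 and 9.47 in UVB-irradiated epithelia, against 9.05 and 9.12 in controls. Cd36, a receptor of thrombospondin-1, had 0.30 with signals of 4.69 to 5.03, below the 25th percentile of each array. The third, Itga4, which pairs with the β1 chain to bind fibronectin and was named after its value was seen, had 0.18. Itgb1, the β1 chain itself, had log2 signals of 10.34 and 10.38 after UVB, against 10.49 and 10.45 in controls, a difference of -0.11 at an adjusted p of 0.371 from limma.

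Of 12 measured genes that bind or cross-link these proteins, 1 was higher and 0 were lower at an unadjusted p of 0.05, beside 5.69% and 7.71% of all probe sets, with a median of 0.033. It was Plat, tissue plasminogen activator, with 0.14, named after its value was seen. Fbln1, fibulin-1, which binds fibronectin, had a larger mean of 0.56, but 0.27 in experiment 1 and 0.85 in experiment 2, at an unadjusted p of 0.0961 from limma. Its log2 signals were 11.03 and 11.32 after UVB, against 10.76 and 10.47 in controls. Both irradiated arrays were above both controls, as in 24.0% of all probe sets. Fbln5, an elastic fiber protein, likewise had 0.15 in experiment 1 and 0.48 in experiment 2. Lox, lysyl oxidase, which cross-links collagen and elastin and was named after its values were seen, was lower in both experiments, with -0.46 and -0.16, a mean of -0.31 and an unadjusted p of 0.0889 from limma.

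Upstream of the members, the 17 genes of TGFβ, YAP and SRF signaling had a median of -0.045. At an unadjusted p of 0.05, 1 was higher and 1 lower, which is near the 5.69% and 7.71% of all probe sets and no result about the list. The higher one was Egr1, an immediate early factor that can drive Fn1 and Thbs1, with a mean of 1.05 (standard error 0.195) and log2 signals of 8.34 and 8.63 after UVB, against 7.58 and 7.30 in controls. The lower one was Wwtr1, which encodes TAZ, the paralog of YAP, with -0.15. Tgfb1, Tgfb2 and Tgfb3, the TGFβ isoforms, had differences of -0.055, 0.045 and -0.045, at adjusted p of 0.464, 0.616 and 0.647 from limma. Of 11 other targets of YAP, TAZ and SRF, 1 was higher and 1 lower at an unadjusted p of 0.05, again near those shares, with a median of 0.015. These were F3, tissue factor, with 0.34, and Myl9, a myosin light chain named after its value was seen, with -0.16. Axl, a receptor kinase, had 0.36 with 0.19 in experiment 1 and 0.53 in experiment 2. Ccn1 and Ccn2, targets of the same factors, are described above with differences of 0.015 and 0.01.

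**Figure D4:**
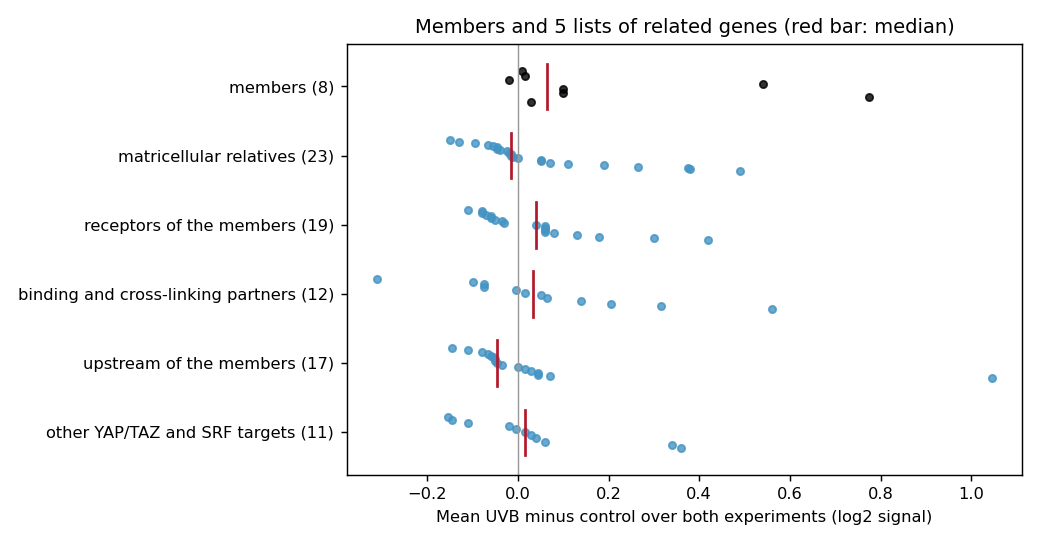
Mean UVB minus control over both experiments (horizontal, log2 signal) of the 8 members and of the genes in 5 lists of relatives, receptors, partners, upstream factors and targets, with the median of each list as a red bar and points set apart vertically for legibility. Medians lie between -0.045 and 0.065, and the gene farthest to the right is Egr1 at 1.05.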

How the data were processed

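The authors deposited 1 table of log2 signals for 28944 probe sets on 4 arrays, labelled from 100 ng of total RNA, normalized between arrays and rounded. The submitters' processing notes name Affymetrix Expression Console, and its version and settings were not known here. A human array stands in the methods, but the platform annotation gives mouse symbols, and these were used, updated through Entrez IDs. Of the probe sets, 21797 had 1 symbol, 1613 several and 5534 none. The experiment number came from the sample titles, where experiment 1 carries none.

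UVB was compared with control over all probe sets with two-sided tests in limma 3.58.1 (R 4.3.3), with the experiment as a block and Benjamini-Hochberg adjustment. The fit has 1 residual degree of freedom, or 2 without the block, and the number of arrays limits the precision. The pairing follows from the eyes of the same mice. Within an experiment, the deviations of both arrays from the means of their groups correlated at -0.998, which the equal experiment means produce. The fits were tested on simulated data with equal experiment means.

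The members, 5 lists of related genes (82 of 85 measured) and 10 lists of markers (71 of 73 measured) were chosen with earlier results of these data known. Named were the members, genes past the thresholds, the TGFβ isoforms and Itgb1. Where no gene of a list passed, the 2 genes with the largest difference of the same sign in both experiments were named. Among the marker lists, this was done only for leukocytes and endothelium. Promoter windows came from RefSeq. Alternatives covered pairing, the methods' t-test, the prior, normalization, filters, annotation, left-out arrays and the fold threshold.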

Additional observations from a re-analysis of the deposited data

How the results depend on the processing

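Vtn and Thbs1 were higher after UVB in all 16 alternatives run for each, with differences of 0.59 to 0.96 and of 0.40 to 0.68. Fn1 (0.01 to 0.05 in 16), Tnc (0.06 to 0.14 in 15) and Postn (0.04 to 0.16 in 15) also stayed above 0. For these genes, settings that changed only the test, the filter or the annotation left the difference as it was. With a shared mean and both experiments above 0, leaving out an array or an experiment could not turn the sign. Only the normalization settings could have done so. The sign of Ccn1 and Ccn2 turned when the array medians were set equal (-0.005 and -0.01), and leaving out an array or an experiment gave -0.01 to 0.04 for Ccn1 and -0.04 to 0.06 for Ccn2. The median of the members lay between 0.04 and 0.10. Without the replicate block, limma called 32 probe sets as higher at the study's thresholds in place of 18, 4179 as higher and 6841 as lower at an unadjusted p of 0.05 in place of 1646 and 2232, and 5099 in place of 0 at an adjusted p of 0.05, among them 1 member, Vtn (adjusted p = 0.0436). Genes at an unadjusted p of 0.05 then numbered 6 higher and 3 lower among the 23 relatives, and 4 higher and 4 lower among the 19 receptors. They numbered 3 higher and 3 lower among the 12 partners, and 1 higher and 7 lower among the 17 upstream genes. Among the 11 targets, 2 were higher and 3 lower. These counts stand beside the 4179 higher and 6841 lower of all 28944 probe sets in the same fit. Over the alternatives, the adjusted p of Vtn ranged from 0.0436 to 0.386 and that of Thbs1 from 0.0506 to 0.386. The methods' t-test gave 3104 higher and 5210 lower probe sets at an unadjusted p of 0.05, and 2650 after Benjamini-Hochberg adjustment. A robust prior gave 48 as higher at the study's thresholds and 109 at an adjusted p of 0.05, and quantile normalization gave 39 as higher at the study's thresholds. With only probe sets above the median level, fewer were tested and 916 were higher at an unadjusted p of 0.05, and Tnc and Postn dropped out. At a threshold of 1.5-fold, 64 were higher and 5 lower, with 0 lower at 1.8-fold. Leaving out 1 array in turn, in the fit without the block, gave 3317 to 3394 lower at an unadjusted p of 0.05, the most without UVB replicate 1 (3394) and without control replicate 1 (3375). With 1 experiment left out no test is possible, so only the differences were recomputed. Except where named, the cause of a shift was not tested.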
